A study of Mus musculus with 2 samples.

Results

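The genes described here are 10 markers of mesothelium and simple epithelium, *Msln*, *Muc16*, *Upk3b*, *Upk1b*, *Lrrn4*, *Pdpn*, *Wt1*, *Krt8*, *Krt18* and *Krt19*, out of 52768 genes listed for each library. They were chosen by name as genes that mark these cells, and all 10 were matched to a mouse Ensembl identifier. RNA sequencing was performed on interscapular brown adipose tissue (iBAT) of 8-week-old C57BL/6 mice. BKO mice carried METTL3flox/flox alleles together with the UCP1-iCre+/- driver, and the flox/flox controls carried METTL3flox/flox alone. Both groups thus share the floxed *Mettl3* gene, which encodes the catalytic subunit of the enzyme complex that writes N6-methyladenosine on mRNA. The driver acts in cells that express *Ucp1*. The paper reports loss of METTL3 in iBAT but not in epididymal white fat, liver or skeletal muscle of BKO mice. Whether mesothelial, epithelial and stromal cells of the pad keep the gene was not tested here. Each group was 1 library made from the pooled RNA of 4 mice. The question asked of these markers was whether tissue from outside the interscapular pad had been sampled.

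With 1 library per group no spread between mice could be measured and no test between genotypes was possible. Values are FPKM (fragments per kilobase of exon, scaled to library size), given with the whole fragments behind them where these could be recovered. Intervals are 95% and exact. A gene at 0 is given with the level that 3 fragments would have as its floor, which lies a little under the upper end of the exact interval, and a fold against such a gene sets the measured level against that floor. Intervals and floors cover counting error only. Fragments assigned to genes numbered 18973145 in the flox/flox library, here the control library, and 20263134 in the other. The label was checked on *Mettl3*, whose level was 1.80 FPKM in the controls and 2.38 FPKM in the mice labelled BKO, a ratio of 1.32 (1.08 to 1.62). This is not the direction of a deletion, but the total for the gene does not separate the floxed exons and cannot settle the label, so the second library is called BKO-labelled throughout. Beside it, *Ucp1* was at 3164 FPKM in the controls and 537 FPKM in the mice labelled BKO, and 12 skeletal muscle genes summed to 55.8 and 3593 FPKM. In bulk tissue a lower level can come from fewer cells of a type or from less RNA per cell, and the 2 cannot be told apart.

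Mesothelium is the sheet of flat cells that lines the pleural, pericardial and peritoneal cavities and covers the organs in them, including the visceral fat pads. It arises from mesoderm but carries keratins like an epithelium. Mature mesothelial cells display mesothelin, uroplakins and podoplanin at their surface and express the transcription factor *Wt1*, and simple epithelia of glands and ducts are built on filaments of *Krt8*, *Krt18* and *Krt19*. The interscapular pad lies under the skin between the shoulder blades, bordered by muscle and white fat, and has no serous lining.

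The 10 markers were measured at unequal levels. *Upk3b*, *Upk1b* and *Muc16* were listed at 0 in both, and *Wt1* rested on 1 fragment in the BKO-labelled library. *Msln*, *Krt8* and *Krt18* gave 33, 9 and 16 fragments in that library and 0, 0 and 2 in the control library. *Lrrn4* was near 2 FPKM in each. *Pdpn* was the one marker with a mean of at least 1 FPKM that differed by 2-fold or more, at 0.378 FPKM in the control library and 4.38 FPKM in the BKO-labelled library. Of the 10 genes, 4 were above 0 in the control library and 7 in the BKO-labelled library, and their summed level was 2.35 and 7.72 FPKM.

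**Figure D1:**
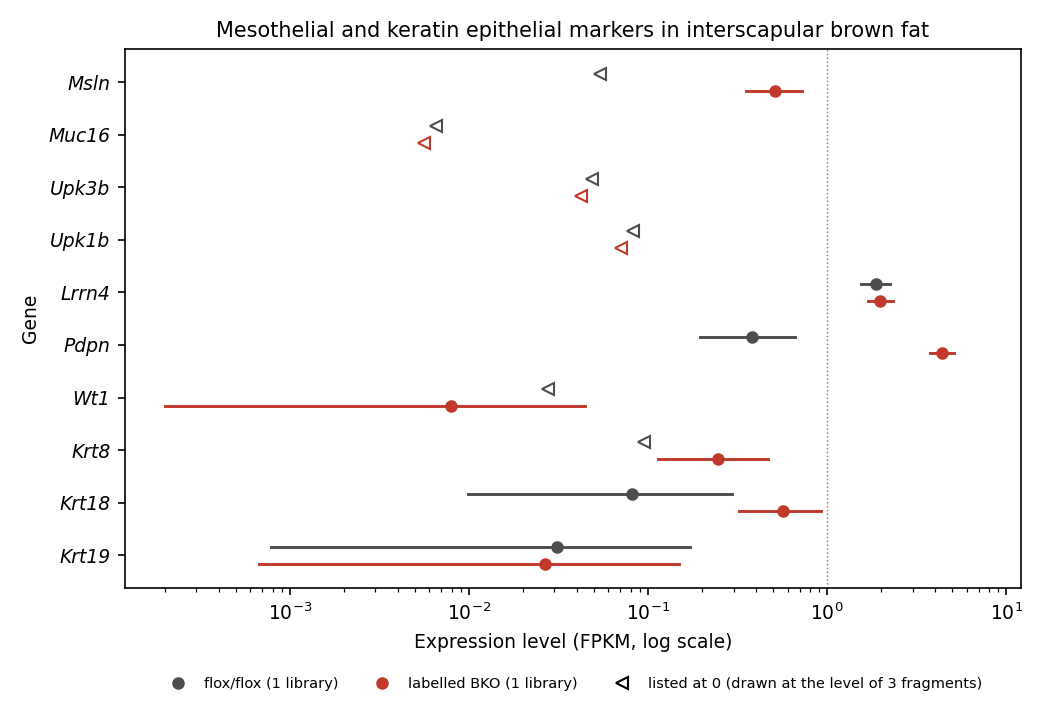
Expression level of the 10 markers (FPKM, log scale) in the control library and the BKO-labelled library, with 1 library each. Bars are exact 95% counting intervals, open triangles are genes listed at 0, drawn at the level that 3 fragments would give, and the dotted line marks 1 FPKM. *Lrrn4* lies above that line in both libraries and *Pdpn* in the BKO-labelled library alone, at 4.38 FPKM.

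Regulatory sequence is shown for the 2 markers that reached a mean of 1 FPKM, *Pdpn* and *Lrrn4*, and for the keratin partners *Krt8* and *Krt18*. The RefSeq table used (GRCm38.p6) held promoters for 6 of the 10 genes. Each line gives the 250 bases before the RefSeq start, 5′ to 3′ on the strand of the gene, with CpG dinucleotides in capitals. *Pdpn* lies at chr4:143299565-143299814 on the minus strand, *Lrrn4* at chr2:132880863-132881112 on the minus strand, *Krt8* at chr15:102004343-102004592 on the minus strand and *Krt18* at chr15:102027966-102028215 on the plus strand.
Pdpn: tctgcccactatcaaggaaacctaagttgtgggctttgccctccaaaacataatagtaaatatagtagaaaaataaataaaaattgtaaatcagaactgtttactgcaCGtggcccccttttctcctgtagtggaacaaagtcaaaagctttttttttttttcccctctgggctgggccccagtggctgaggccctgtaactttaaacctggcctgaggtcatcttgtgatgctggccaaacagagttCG
Lrrn4: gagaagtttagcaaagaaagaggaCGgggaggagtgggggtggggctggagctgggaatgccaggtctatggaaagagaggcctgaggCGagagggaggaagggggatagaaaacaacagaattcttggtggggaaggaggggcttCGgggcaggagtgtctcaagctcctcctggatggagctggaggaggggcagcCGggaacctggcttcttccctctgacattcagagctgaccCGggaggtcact
Krt8: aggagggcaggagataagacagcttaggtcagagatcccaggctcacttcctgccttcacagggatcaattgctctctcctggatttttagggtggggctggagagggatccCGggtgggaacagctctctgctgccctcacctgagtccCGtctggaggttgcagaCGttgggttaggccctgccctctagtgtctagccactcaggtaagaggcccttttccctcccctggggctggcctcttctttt
Krt18: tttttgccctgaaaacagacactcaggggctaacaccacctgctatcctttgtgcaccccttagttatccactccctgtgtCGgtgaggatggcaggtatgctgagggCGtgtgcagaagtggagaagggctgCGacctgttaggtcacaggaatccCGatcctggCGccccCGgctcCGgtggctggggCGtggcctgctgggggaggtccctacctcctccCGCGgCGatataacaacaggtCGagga

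The *Pdpn* window held 2 CpG dinucleotides and was 43.2% G and C, and the *Lrrn4* window held 5 at 59.2%. The keratin windows were at 58.0% for *Krt8*, with 3 CpG dinucleotides, and at 60.4% for *Krt18*, with 12. The median over 32851 windows of this length was 6 CpG dinucleotides and 52.4% G and C. Thus the *Krt18* window was the richest in CpG among the 4 shown. A GC box, spelled GGGCGG and searched on both strands, was in 32.7% of all windows and in none of the 4. The same held for the TATA box, spelled TATAAA, in 12.4% of all windows. The AP-1 site, spelled TGANTCA, was in 6.75% of all windows and again in none of the 4. No motif contains another, and a missing match says only that these letters are not in the window.

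Surface proteins of mesothelium were considered first. *Msln* encodes mesothelin, a glycoprotein anchored to the membrane by a lipid (ENSMUSG00000063011, chromosome 17, 25748613 to 25754378, minus strand, GRCm38). It was listed at 0 in the control library, with a floor of 0.0541 FPKM, and was at 0.514 FPKM (0.354 to 0.722) in the BKO-labelled library, from 33 fragments. Set against 3 fragments in the controls, this is a level at least 9.5-fold higher, and with the counting error of both libraries the exact lower limit is 7.30-fold. Its fragments, like those of *Krt8* and *Krt18*, came out whole at a length other than the annotated one (3171 against 3064 bases), so these counts are less certain than the others. The level in the BKO-labelled library was above that of 45.5% of protein-coding genes, so the transcript was measured, below the middle of the list.

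*Muc16* encodes the large mucin that binds mesothelin and is the source of the CA125 antigen (ENSMUSG00000109564, chromosome 9, 18495455 to 18674530, minus strand). No fragment was counted in either library over 26350 bases of exon, with floors of 0.00651 FPKM in the control library and 0.00562 FPKM in the BKO-labelled library. These are the lowest floors among the 10 markers, as its exons are the longest. No fold can be given for it.

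*Upk3b*, a uroplakin made by mesothelium and by the urothelium of the bladder (ENSMUSG00000042985, chromosome 5, 136038496 to 136046487, plus strand), had no fragment in either library. The floors were 0.0486 FPKM in the controls and 0.0420 FPKM in the mice labelled BKO. *Upk1b*, a uroplakin of the tetraspanin family (ENSMUSG00000049436, chromosome 16, 38773184 to 38800328, minus strand), was also listed at 0 in both, with floors of 0.0822 and 0.0710 FPKM. The remaining uroplakins were low as well. *Upk1a*, the most abundant of 5 urothelial genes, had 0.322 and 0.765 FPKM on 8 and 22 fragments, and none of the 5 reached a mean of 1 FPKM.

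*Lrrn4* encodes a membrane protein with leucine-rich repeats that is enriched in mesothelium and also found in brain (ENSMUSG00000043110, chromosome 2, 132868305 to 132880891, minus strand). It was at 1.86 FPKM (1.55 to 2.23) in the control library and 1.98 FPKM (1.68 to 2.33) in the BKO-labelled library, from 121 and 149 fragments. The ratio was 1.06 (0.831 to 1.36), so a difference was not detectable at this depth, and a change of 2-fold lay outside the counting interval. *Lrrn4* was thus measured at a like level where *Upk3b*, *Upk1b* and *Muc16* had no fragment. It lay above 59.5% of protein-coding genes in the control library and above 57.7% in the BKO-labelled library.

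*Pdpn* encodes podoplanin, a mucin-like glycoprotein that binds CLEC-2 on platelets and is displayed by mesothelium, lymphatic endothelium, podocytes and fibroblasts (ENSMUSG00000028583, chromosome 4, 143267431 to 143299564, minus strand). It was at 0.378 FPKM (0.195 to 0.660) in the control library, from 12 fragments, and at 4.38 FPKM (3.73 to 5.11) in the BKO-labelled library, from 161. The ratio was 11.6 (6.45 to 22.9), and its counting interval did not overlap that of *Lrrn4*. Podoplanin mRNA lay above 46.3% of protein-coding genes in the controls and above 69.2% in the mice labelled BKO.

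The markers past the fold threshold were counted next. A gene was counted when its log2 ratio, after adding 0.1 FPKM to both values, was at least 1 in size. A filter on the mean of both values, set at 1 FPKM, was passed by 2 of the 10, *Lrrn4* with a log2 ratio of 0.08 and *Pdpn* with 3.23. Of these 2, 1 was at least 2-fold higher in the BKO-labelled library and 0 were at least 2-fold lower. *Pdpn* passed the filter only through the library in which it was high, so the count carries no weight of its own. Among all 12205 genes that passed, 11.0% were higher by this measure and 5.91% lower. Without the filter, *Msln*, *Krt8*, *Krt18* and *Pdpn* made 4 of the 7 markers above 0 in either library at least 2-fold higher, and 0 were lower. *Msln*, *Krt8* and *Wt1* were at 0 in the control library, so they entered only through the BKO-labelled library and could only come out higher. The unfiltered count therefore carries no weight of its own either. Among all 24856 genes above 0 in either library, 13.7% were higher and 9.32% lower. The log2 ratio had a median of 1.66 over *Lrrn4* and *Pdpn* and of 0.02 over all genes that passed. With *Pdpn* included only through its high library, the first median carries no weight either and does not describe the 10 markers. Bringing the FPKM of each library to 1 common sum (TPM) moved the median of all genes by 0.34, and *Lrrn4* then stood at 0.40 and *Pdpn* at 3.53.

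**Figure D2:**
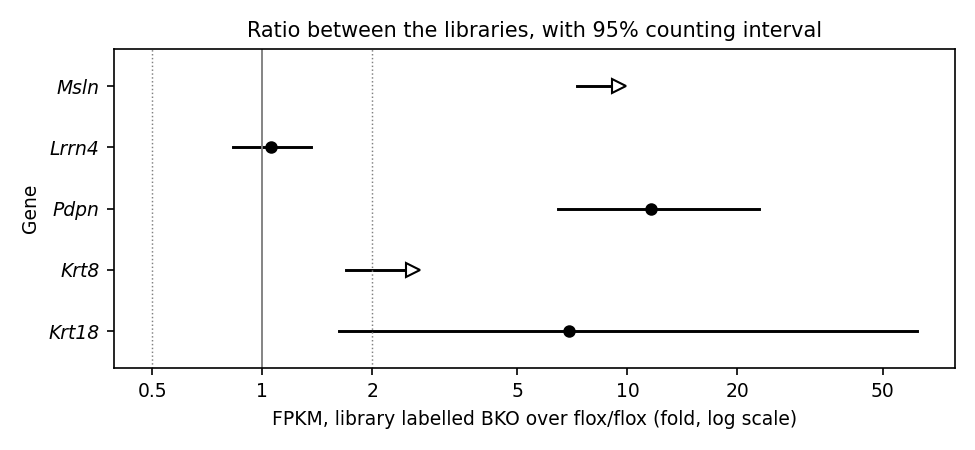
Ratio of FPKM in the BKO-labelled library over flox/flox (log scale) for the 5 markers with more than 3 fragments in a library. Bars are exact 95% counting intervals, open triangles set genes listed at 0 in the control library against the floor of 3 fragments, with a bar down to the exact lower limit, and dotted lines mark 2-fold lower and 2-fold higher. *Lrrn4* sits at 1.06 between the dotted lines, the bars of *Pdpn* and *Msln* lie above 2-fold, and those of *Krt8* and *Krt18* reach below it.

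*Wt1* encodes the zinc finger transcription factor of the mesothelium and of podocytes, and in mice it also marks progenitors of visceral white fat (ENSMUSG00000016458, chromosome 2, 105126529 to 105173616, plus strand). No fragment was counted in the control library, with a floor of 0.0277 FPKM, and 1 fragment was counted in the BKO-labelled library, at 0.00798 FPKM. Both values were under the floor of 3 fragments and no fold is given. The transcription factor was therefore not detected above the floor in either library.

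Keratins of simple epithelium form filaments from a type II chain, *Krt8*, paired with a type I chain, *Krt18* or *Krt19*. *Krt8* (ENSMUSG00000049382, chromosome 15, 101996698 to 102004482, minus strand) was listed at 0 in the control library, with a floor of 0.0951 FPKM, and was at 0.246 FPKM (0.113 to 0.468) in the BKO-labelled library, from 9 fragments, at least 2.59-fold higher than the floor. With the counting error of both libraries the exact lower limit for *Krt8* is 1.70-fold, under 2-fold. *Krt18* (ENSMUSG00000023043, chromosome 15, 102028180 to 102032027, plus strand) was at 0.0817 FPKM (0.00990 to 0.295) and 0.565 FPKM (0.323 to 0.917), from 2 and 16 fragments, a ratio of 6.91 (1.62 to 61.9). The lower limits for both partners thus lay above 1 and below 2-fold, with each gene below 1 FPKM. The 2 genes are transcribed away from each other from starts 23698 bases apart.

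*Krt19*, the smallest type I keratin and a marker of ducts (ENSMUSG00000020911, chromosome 11, 100140810 to 100148665, minus strand), had 1 fragment in each library, at 0.0308 and 0.0266 FPKM. Both were under the floor, so no fold is given. The type I partner therefore differed between the 2 chains, with *Krt18* above the floor in the BKO-labelled library and *Krt19* not. Summed over the 3 keratins there were 3 and 26 fragments, and the summed level was 0.113 and 0.838 FPKM. *Krt8* values are uncertain, since the processed pseudogene *Krt8-ps* can share its reads, with 0 and 1 fragment counted to it. In GENCODE M21, 101 of the 1958 exon bases of *Krt8* are also shared with *Gm36026* on the opposite strand. *Gm36026* is not among the genes listed for the libraries, and whether this overlap affects the *Krt8* value was not tested. None of the other 9 markers shared exon bases with an annotated gene.

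Other keratins were read beside these 3. Of 53 keratin genes, 18 were above 0 in either library, and 4 reached a mean of 1 FPKM, none of them among the markers. *Krt79*, a keratin of hair follicle and sebaceous ducts in mouse skin, was at 4.64 FPKM in the control library and 3.72 FPKM in the BKO-labelled library, from 340 and 316 fragments, 1.25-fold lower (1.07 to 1.46). *Krt10*, a keratin of the upper epidermis, was at 1.95 and 1.71 FPKM, from 72 and 73 fragments. *Krt80* had 1.26 and 1.36 FPKM, and *Krt222*, a keratin-like gene, had 1.22 and 0.870 FPKM on 70 and 58 fragments. Below the filter, *Krt36* had 4 and 17 fragments, a ratio of 3.67 (1.2 to 15). *Krt20*, *Krt4* and *Krt23* had 0 fragments in the control library and 5, 4 and 3 in the BKO-labelled library. *Krt15*, *Krt87* and *Krt77* had 1 and 0 fragments each. The low keratins thus went both ways, and a rise from few fragments was not particular to *Krt8* and *Krt18*. Summed over the 50 keratins other than *Krt8*, *Krt18* and *Krt19*, the level was 9.51 FPKM in the control library and 8.80 FPKM in the BKO-labelled library.

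**Figure D3:**
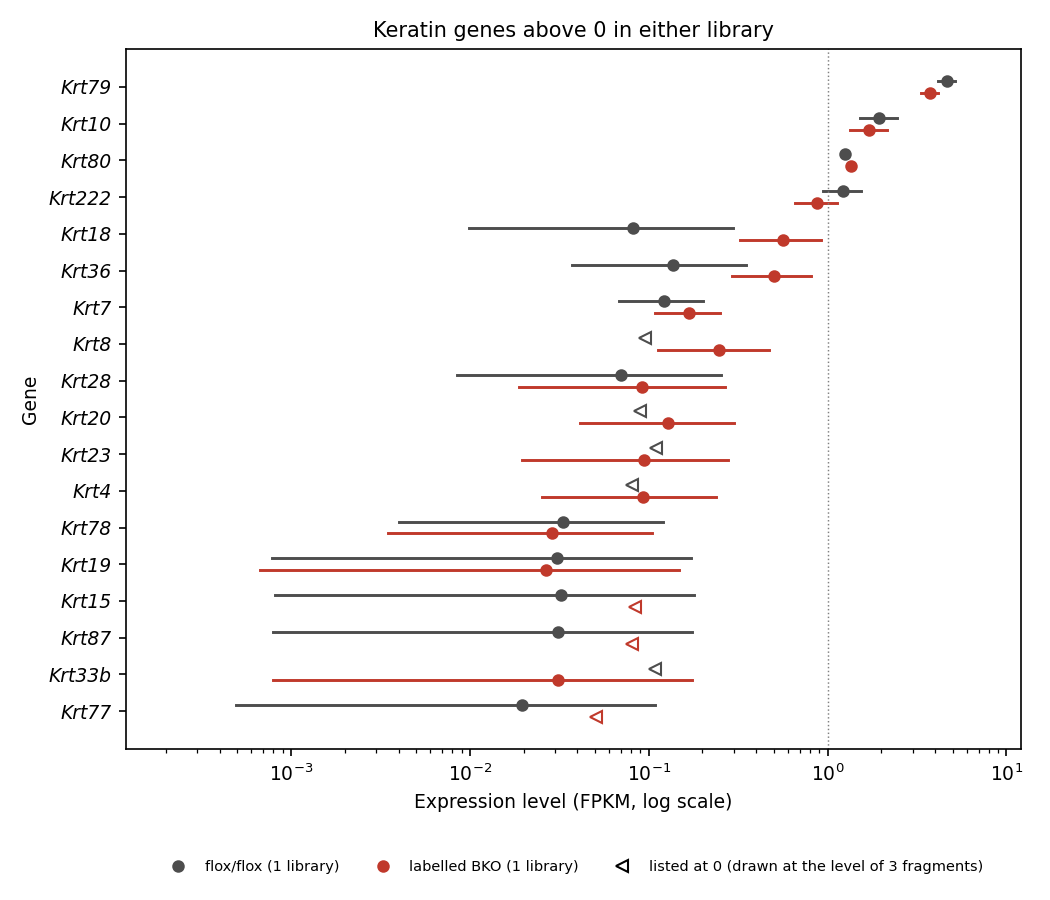
Expression level (FPKM, log scale) of the 18 keratin genes above 0 in either library, ordered by mean level, in the control library and the BKO-labelled library. Bars are exact 95% counting intervals (none could be computed for *Krt80*), open triangles are genes listed at 0, drawn at the level of 3 fragments, and the dotted line marks 1 FPKM. *Krt79* and *Krt10* lead in both libraries, and the bars of *Krt18* do not overlap.

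Further mesothelial and epithelial genes were examined beside the markers. Of 12 other genes of mesothelium and visceral mesoderm, 4 were at 0 in both libraries, *Bnc1*, *Calb2*, *Tcf21* and *Isl1*, and 1 reached a mean of 1 FPKM. That gene was *Cldn15*, a claudin also known from gut epithelium, at 13.4 and 9.03 FPKM, from 499 and 388 fragments, 1.49-fold lower (1.30 to 1.70) in the BKO-labelled library. No gene of this list passed 2-fold among those past the filter. *Aldh1a2*, which makes retinoic acid in mesothelium, was at 0.0505 and 0.415 FPKM, from 2 and 19 fragments, a ratio of 8.20 (1.98 to 72.6). *Gata6* had 44 and 78 fragments, a ratio of 1.53 (1.04 to 2.27). *Gpm6a*, with 15 and 8 fragments, and *Rspo1*, with 16 and 12, were lower, and *Nkain4*, with 2 and 9, and *Krt7*, with 15 and 24, were higher. The intervals of these ratios span 1. *Gata4* had 1 and 2 fragments. The list thus went both ways, with a summed level of 14.9 and 11.0 FPKM. The calretinin gene *Calb2* and the transcription factor *Bnc1* thus had no fragment while *Cldn15* was abundant.

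Further genes of simple epithelium, the keratin *Krt20* among them, were low. None of 15 reached a mean of 1 FPKM, and 5 were at 0 in both libraries, among them the adhesion molecule *Epcam* and the tight junction genes *Cldn3* and *Cldn4*. *Esrp2*, an epithelial splicing factor and the most abundant of the list, was at 1.16 and 0.603 FPKM, 1.92-fold lower (1.35 to 2.76) in the BKO-labelled library. *Prss8*, a membrane protease, was at 0.185 and 1.23 FPKM, from 6 and 46 fragments, 6.62-fold higher (2.82 to 19.0). *Spint1* had 21 and 10 fragments, 2.43-fold lower (1.1 to 5.78). The summed level of the list was 2.16 and 2.70 FPKM. Of 10 genes that join keratin filaments to cell contacts, 3 passed the filter, with *Pkp2*, a plakophilin of desmosomes, 2.73-fold higher (2.17 to 3.45), *Plec*, a linker protein abundant in muscle, 2.05-fold higher (1.94 to 2.16) and *Jup*, plakoglobin, 1.56-fold lower (1.44 to 1.68).

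Epidermis, which covers the interscapular pad, was assessed by 20 genes. Of these, 12 were at 0 in both libraries, including the basal keratins *Krt5* and *Krt14* and the suprabasal keratin *Krt1*. Past the filter were *Krt10* and *Sfn*, a stratifin of keratinocytes, at 1.10 and 2.17 FPKM, 1.98-fold higher (1.28 to 3.12) in the BKO-labelled library. *Trp63*, the transcription factor of basal epithelium, was at 0.0614 and 0.524 FPKM, from 9 and 89 fragments, 8.54-fold higher (4.30 to 19.3). *Krtdap* had 1 and 9 fragments, 7.77-fold higher (1.08 to 341), and *Lor* had 7 and 22, 2.71-fold higher (1.12 to 7.52). *Ivl* had 0 and 3 fragments, and *Krt15* and *Flg* had 1 and 0 each. The summed level of the list was 3.45 and 5.75 FPKM. Thus *Sfn*, *Trp63*, *Krtdap* and *Lor* differed by more than counting error while *Krt5* and *Krt14* had no fragment. Hair follicle keratins were at 0 in both libraries for 6 of 7 genes matched, all but *Krt79*.

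Tissues of other body sites were read from their own markers. Of 5 lung genes 3 were at 0 in both libraries, as were 3 of 5 kidney genes, 4 of 5 pancreas genes, 2 of 5 gut genes and 4 of 7 mammary genes. *Svs4*, which encodes a protein of seminal vesicle fluid, was listed at 0 in the control library and at 2.03 FPKM in the BKO-labelled library, from 30 fragments, at least 8.64-fold higher than the floor. *Svs2*, a second gene of that fluid, had 0 and 5 fragments, and the 3 epididymal genes of the list were at 0. All 5 liver genes were above 0 in the BKO-labelled library and 2 in the control library, with a summed level of 1.42 and 0.0557 FPKM. *Alb*, the serum albumin of liver, rested on 1 and 28 fragments, at 0.0244 and 0.591 FPKM, a ratio of 24.2 (4.00 to 989). *Serpina1a*, an antitrypsin of liver, had 1 and 13 fragments, a ratio of 11.2 (1.69 to 477), and *Apoa1*, an apolipoprotein of liver and gut, had 0 and 8 fragments, with an exact lower limit of 1.47. *Ttr* and *Fgb* had 0 fragments in the control library and 3 each in the BKO-labelled library. Only *Alb*, *Serpina1a* and *Apoa1* were thus above the floor of 3 fragments, in the BKO-labelled library alone, and each liver gene was below 1 FPKM. *Cela1*, an elastase, was at 1.30 and 10.8 FPKM, 8.36-fold higher (6.24 to 11.4), with the other 4 pancreas genes at 0. *Lgals4*, a galectin of gut epithelium, was at 20.8 and 8.24 FPKM, 2.52-fold lower (2.23 to 2.85), with *Cdx1* and *Cdx2* at 0 in both libraries. *Amy1*, an amylase, was at 43.2 and 63.5 FPKM, and *Ccl25*, a chemokine of thymic epithelium, at 1.27 and 1.16 FPKM. Whether any such tissue was sampled was not tested.

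**Figure D4:**
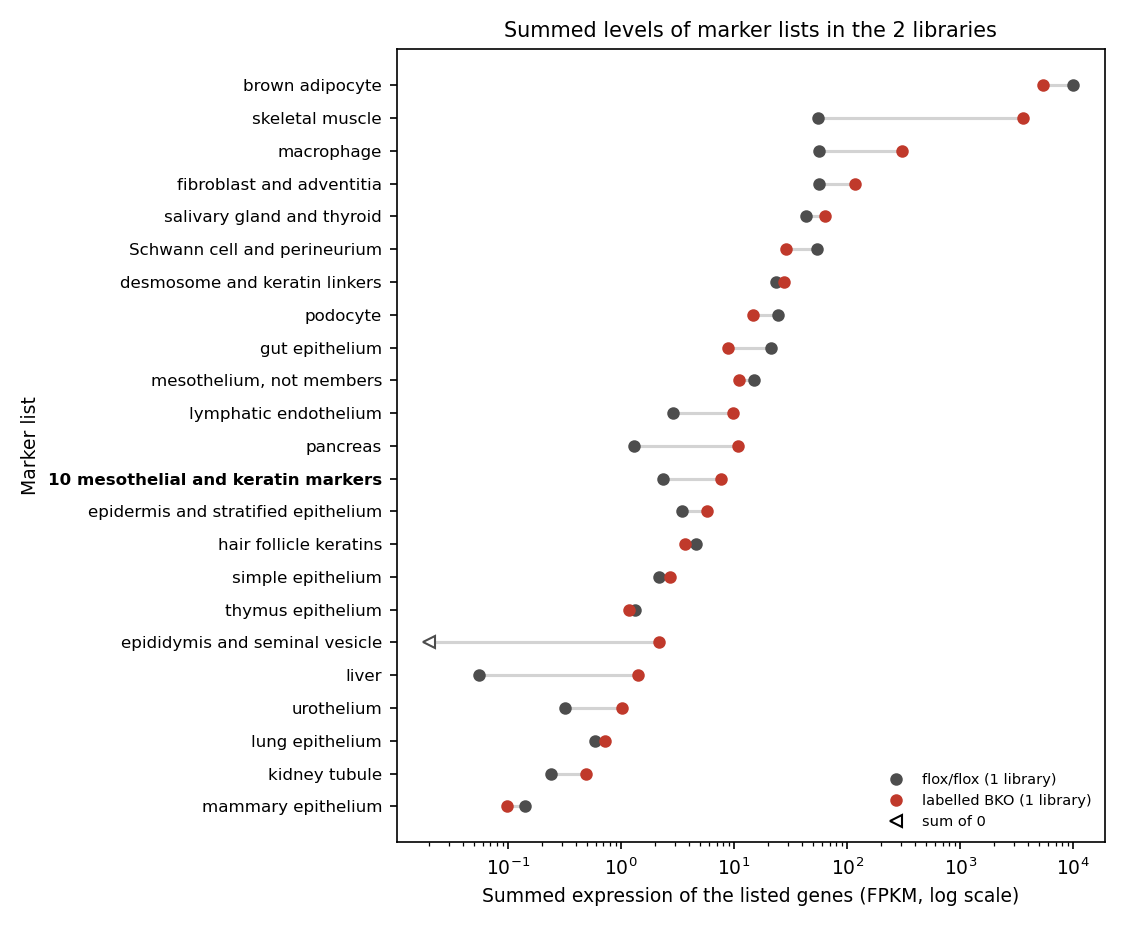
Summed expression (FPKM, log scale) of the 10 markers and of 22 lists for other cell types and tissues, in the control library and the BKO-labelled library, with grey lines joining the values of a list. The 10 markers sum to 2.35 and 7.72 FPKM, against 9846 and 5445 FPKM for 10 brown adipocyte genes and 55.8 and 3593 FPKM for 12 skeletal muscle genes.

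Cell types known to display podoplanin were read beside the *Pdpn* value. Of 6 lymphatic endothelial genes, 2 passed the filter. *Lyve1*, a hyaluronan receptor that resident macrophages also carry, was at 0.549 and 8.36 FPKM, 15.2-fold higher (10.4 to 23.2), and *Flt4*, the receptor of lymphatic growth factor, was at 1.92 and 1.01 FPKM, 1.90-fold lower (1.56 to 2.32). *Prox1*, the defining transcription factor, was at 0.0545 and 0.165 FPKM, from 8 and 28 fragments. *Mmrn1* had 30 and 20 fragments and *Reln* had 42 and 32, both lower, with intervals of the ratio that span 1. The lymphatic genes thus went both ways. Their summed level was 2.91 and 9.77 FPKM, and *Lyve1* made most of the second value. Podocyte genes were also uneven. *Podxl*, which endothelium shares, was at 21.5 and 10.6 FPKM, 2.03-fold lower (1.88 to 2.18), *Synpo*, an actin-binding protein, at 2.69 and 3.48 FPKM, 1.29-fold higher (1.14 to 1.46), and *Ptpro*, a phosphatase, at 0.162 and 0.507 FPKM, 3.14-fold higher (1.87 to 5.52), while *Nphs1*, which encodes nephrin, was at 0 in both libraries.

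Fibroblast, macrophage and skeletal muscle genes were read in the same way. Of 8 fibroblast and adventitial genes, all past the filter, 5 were at least 2-fold higher in the BKO-labelled library and 1 at least 2-fold lower, and their summed level was 56.0 and 118 FPKM. *Dpp4*, a marker of fascial progenitors, was 14.9-fold higher (9.82 to 23.9), *Dcn*, decorin, 1.86-fold higher (1.77 to 1.96) and *Pdgfrb*, a receptor of mural cells, 2.11-fold lower (1.94 to 2.30). All 8 macrophage genes were at least 2-fold higher, with a summed level of 56.1 and 305 FPKM and values for *Lyz2* of 41.0 and 237 FPKM. Of these 3 lists the skeletal muscle genes had the largest median, and all 12 were at least 2-fold higher, 7 of them at 1 FPKM or more in the control library. Their ratios ran from 38.7 (31.4 to 48.3) for *Myh2* to 1259 (539 to 3880) for *Myh7*, both myosin heavy chains, and *Acta1*, skeletal actin, was at 16.5 and 1389 FPKM. The median log2 ratio was 5.74 over the muscle genes, 2.05 over the macrophage genes and 1.43 over the fibroblast genes. The part of these cells in the values of *Pdpn*, *Msln*, *Krt8* and *Krt18* was not tested.

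The labelled tissue was checked against 10 genes of brown adipocytes. All 10 were above 1 FPKM in both libraries, with *Cox8b*, a cytochrome oxidase subunit, at 3051 and 1659 FPKM and *Ucp1*, the uncoupling protein of brown fat, at 3164 and 537 FPKM. Of the 10, 3 were at least 2-fold lower in the BKO-labelled library and 0 at least 2-fold higher. *Adipoq*, adiponectin, which white fat also makes, was at 665 and 1150 FPKM, 1.73-fold higher (1.70 to 1.76), and *Plin1*, a lipid droplet protein, 1.07-fold higher (1.05 to 1.08). For adiponectin the paper reports the opposite direction, a decrease in BKO mice by quantitative PCR. The reason for this difference was not tested. Brown adipocyte transcripts were thus present in both libraries at levels far above those of the 10 mesothelial and keratin markers. By quantitative PCR the paper also reports higher *Acta1*, *Tnnc1* and myoglobin and lower *Ucp1*, *Prdm16* and *Pgc-1α* in iBAT of BKO mice. As each group was sequenced once as a pool, a difference in dissection and a difference in genotype cannot be told apart in these libraries.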

How the data were processed

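Interscapular brown fat was sequenced in 2 libraries, 1 per genotype, each pooled from 4 mice, with groups taken from the genotype labels. Alignment to GRCm38 was with TopHat2 and counting with HTSeq (the submitters' notes name 0.6.1), and FPKM was the unit the authors deposited. Strand, multiply mapped reads and the step from counts to FPKM are not given in the sources used here.

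Genes were named from GENCODE M21 (GRCm38), which matched 52489 of 52768 identifiers. Multiplying FPKM by exon length and a constant of the library gave whole fragments, within 0.001 at the annotated length for 22405 of 24856 genes above 0, and within 0.0001 at a single other length within 20% for 1644 (*Msln*, *Krt8* and *Krt18* among them). Fragments of the remaining 807 genes were undetermined and entered the library totals through their annotated length, where one was known. The constants correspond to library sizes of 17480546 for flox/flox and 20240633 for BKO, so the deposited scaling differed from the flox/flox total.

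The measure was the log2 ratio after adding 0.1 FPKM, which understates changes of low genes, with a filter on a mean of 1 FPKM. No count model was run and no test was possible with 1 library per group. Fold intervals are Clopper-Pearson, intervals of single values exact Poisson, and a gene at 0 was placed at 3 fragments in that library. Fragment recovery and intervals were tested on simulated data. Alternatives were pseudocounts of 1 and 0.01 FPKM, no filter, a filter of 5 FPKM, TPM, own fragment totals, median centring, protein-coding genes only and rescaling without mitochondrial genes.

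The members and the 22 marker lists were chosen with earlier results of these data known. Named genes were all 10 markers, the most abundant of each list with its largest and smallest ratio past the filter, keratins past the filter, *Mettl3* and *Ucp1*. Some list genes are not reported here. Of the genes so chosen, *Wap*, *S100b*, *Slc2a1*, *Ager*, *Aqp2*, *Ttn*, *Cd68* and *Csf1r* are not described. *Bnc1*, *Calb2*, *Tcf21*, *Isl1*, *Aldh1a2*, *Epcam*, *Cldn3*, *Cldn4*, *Prss8*, *Spint1*, *Plec*, *Krt5*, *Krt14*, *Krt1*, *Trp63*, *Cdx1*, *Cdx2*, *Prox1*, *Nphs1*, *Ptpro*, *Svs2*, *Serpina1a*, *Apoa1*, *Ttr*, *Fgb*, *Myh2*, *Plin1*, *Gm36026* and *Krt8-ps* fall outside the rule and were named after their values were seen. The same holds for *Krtdap*, *Lor*, *Ivl*, *Krt15*, *Flg*, *Gata6*, *Gpm6a*, *Rspo1*, *Nkain4*, *Krt7*, *Gata4*, *Mmrn1*, *Reln*, *Krt36*, *Krt20*, *Krt4*, *Krt23*, *Krt87* and *Krt77*. Analyses used Python 3.11.15, numpy 2.4.6, pandas 2.3.3, scipy 1.17.1 and matplotlib 3.10.9.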

Additional observations from a re-analysis of the deposited data

How the results depend on the processing

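The count of 1 marker at least 2-fold higher and 0 lower held under both other pseudocounts, TPM, own fragment totals, median centring, protein-coding genes only and rescaling without mitochondrial genes. It rests on *Lrrn4* and *Pdpn* alone, and *Pdpn* passed the filter only through its high library. That the count held therefore gives it no weight. Without the filter the count of higher markers became 4, and this depended on the pseudocount. The log2 ratios of *Msln*, *Krt8* and *Krt18* were 0.60, 0.32 and 0.53 with 1 FPKM, each under 2-fold. With 0.01 FPKM they were 5.71, 4.68 and 2.65. No marker passed a filter of 5 FPKM, so that setting gave no value for them. The median log2 ratio over *Lrrn4* and *Pdpn* was 1.01 with a pseudocount of 1 FPKM and *Pdpn* itself 1.96. The median of the lymphatic endothelial list, 1.42 over the genes past the filter, was -0.27 without the filter, by adding genes with few fragments. Genes past 2-fold in all were 65.0% higher as deposited, 84.8% under TPM, 77.7% over protein-coding genes alone and 73.1% with own fragment totals, which moved the median of all genes by 0.12. All genes at least 2-fold higher numbered 1341, 2156 under TPM, 548 at 5 FPKM and 3393 without the filter, and those lower 721, 386, 277 and 2316, with 413 at a pseudocount of 1 FPKM and 344 among protein-coding genes. Depth limits the 8 markers below the filter, each on at most 33 fragments. No paired analysis was possible because each group had 1 library.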
